A study of Mus musculus with 9 samples.

Results

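The genes described here are 44 that encode the protein-folding, import and disposal machinery of the endoplasmic reticulum (ER), out of 53077 genes in each sample's table. They were listed by gene symbol and function, with earlier results of these data known, so counts over them are a description. All 44 were found in all 9 samples and all 44 were among the 13834 genes that passed the filter on low counts. By function, 18 are chaperones and folding enzymes, 14 belong to the translocon and signal peptidase, 9 to ER-associated degradation and 3 are stress sensors.

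The cells were 5TGM1-Cas9, a mouse multiple myeloma line that expresses the Cas9 nuclease, which all 3 populations carried. One population received a control gRNA, one an *Slc2a1* gRNA, which targets the gene for the glucose transporter GLUT1, and one *Slc2a1/3/5/6/8* gRNAs, which target 5 glucose and fructose transporter genes. The cultures were transduced pools and not single clones, so cells with and without edited alleles contributed RNA together. In the population with 5 targets, gRNAs to the other transporters had been introduced and reporter-positive cells sorted and grown before the *Slc2a1* gRNA was added, so that history and the deleted genes cannot be told apart. RNA sequencing covered 3 biological replicates of each population, and p-values measure only the spread between these samples.

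Secreted and membrane proteins enter the ER through the Sec61 channel, lose their signal peptide to signal peptidase and fold with the help of Hsp70, Hsp90, lectin and disulfide isomerase families. Proteins that fail to fold are extracted and degraded in the cytosol, a process called ER-associated degradation (ERAD). The sensors IRE1, ATF6 and PERK watch the load of unfolded protein, and their signalling, the unfolded protein response, raises transcription of many of the same chaperone and ERAD genes. Plasma cells and myeloma cells secrete antibody and are known for a large ER and high levels of this machinery.

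Library totals lay between 21838805 and 30537105 estimated counts, and mitochondrial genes took 4.84% to 11.1% of them, with control replicate 3 the lowest and *Slc2a1/3/5/6/8* gRNA replicate 1 the highest. Those are also the libraries with the highest and the lowest summed level of the 44 genes. A fit without these 2 libraries, added after seeing the data, gave median log2 fold changes of the 44 close to those with all 9 samples. They were -0.20 against -0.19 for the *Slc2a1* gRNA over control, -0.22 against -0.23 for 5 gRNAs over control and -0.12 against -0.10 between the deleted populations. The part of the mitochondrial share in the results was not tested. Of 8 plasma cell markers, 7 were at 1 TPM or above in every sample. TPM is a transcript level corrected for gene length and scaled to a fixed total. Among them were *Sdc1* (50.4 to 109 TPM), *Xbp1* (384 to 568), *Jchain* (14.2 to 97.5) and *Mzb1* (31.4 to 172), while *Tnfrsf17* stayed between 0.0725 and 1.36 TPM. The 8 summed to 743 to 1100.3 TPM in control, 672 to 889 with the *Slc2a1* gRNA and 824 to 997 with 5 gRNAs. The part of this in the results was not tested. The 5 B cell markers summed to at most 0.964 TPM and the 4 T cell markers to at most 1.71 TPM. Among 4 macrophage markers only *Cd68* was at 1 TPM or above, and the list summed to 57.0 to 97.4 TPM in control, 31.1 to 47.2 with the *Slc2a1* gRNA and 33.3 to 44.1 with 5 gRNAs, with *Csf1r*, *Lyz2* and *Adgre1* at or below 0.963 TPM. The part of *Cd68* in the results was not tested. Transcripts of the targeted *Slc2a1* were at 198, 95.2 and 94.0 CPM (a count scaled to library size, not to gene length) in control, 123, 98.5 and 98.0 with the *Slc2a1* gRNA and 93.3, 91.8 and 52.9 with 5 gRNAs. Of the other targets, with 5 gRNAs against control *Slc2a8* (-1.22 ± 0.14, adjusted p = 0.000309) and *Slc2a6* (-0.67 ± 0.19, adjusted p = 0.0366) fell, *Slc2a3* did not pass (0.27 ± 0.15, adjusted p = 0.259) and *Slc2a5*, at or below 1.42 TPM in every sample, rose (2.65 ± 0.49, adjusted p = 0.00478). *Slc2a1* itself fell with 5 gRNAs (-0.66 ± 0.18, adjusted p = 0.0290) and did not pass with its own gRNA alone (-0.21 ± 0.18, adjusted p = 0.544). Small insertions and deletions can leave a transcript in place, so this level alone does not check the labels.

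Promoters are shown first, because the unfolded protein response acts on many of these genes through a known element. The ER stress response element, ERSE, reads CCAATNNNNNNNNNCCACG and binds ATF6 and XBP1 together with NF-Y, and a shorter form, ERSE-II, reads ATTGG, 1 free base and CCACG. Both end in CCACG. RefSeq promoter sequences (GRCm38.p6, 250 bases before to 50 after the start) were matched to 36 of the 44 genes. No entry was matched for *Hyou1*, *Manf*, *Sec61a1*, *Ssr2*, *Spcs3*, *Sec11c*, *Derl1* and *Atf6*. On either strand, ERSE occurred in 9 of the 36 (25.0%) and in 0.137% of 27025 genes with a promoter in that table. ERSE-II occurred in 2 of the 36, *Dnajb11* and *Herpud1*, and in 0.0444% of all. The bare CCACG occurred in 30 of the 36 against 35.5% of all, and the XBP1 element TGACGTGG in 0 against 0.714%. A match is a description of the letters and not a shown binding site.

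Sequences of 6 promoters are given up to the transcription start, or in *Dnajb11* to 18 bases past it where its match ends, with the fixed letters of ERSE or ERSE-II in capitals. *Hspa5* (chr2:34771840-34772089, plus strand), *Hsp90b1* (chr10:86705445-86705694, minus strand), *Calr* (chr8:84846932-84847181, minus strand) and *Creld2* (chr15:88819396-88819645, plus strand) carry ERSE and are chaperone genes. *Hsp90b1*, *Calr* and *Creld2* passed with 5 gRNAs against control and *Hspa5* did not, and the difference between these genes was not tested. *Dnajb11* (chr16:22857595-22857862, plus strand) and *Herpud1* (chr8:94386179-94386428, plus strand) carry ERSE-II.
Hspa5: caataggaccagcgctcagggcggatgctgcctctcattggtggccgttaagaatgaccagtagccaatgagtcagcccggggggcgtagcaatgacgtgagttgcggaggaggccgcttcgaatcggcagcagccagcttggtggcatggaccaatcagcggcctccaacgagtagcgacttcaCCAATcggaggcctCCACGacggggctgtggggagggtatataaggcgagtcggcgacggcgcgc
Hsp90b1: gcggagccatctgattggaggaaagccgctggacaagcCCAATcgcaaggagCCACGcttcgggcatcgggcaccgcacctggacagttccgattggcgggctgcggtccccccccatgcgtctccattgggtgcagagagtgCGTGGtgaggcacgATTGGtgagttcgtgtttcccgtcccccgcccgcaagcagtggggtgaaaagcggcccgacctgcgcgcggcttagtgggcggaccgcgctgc
Calr: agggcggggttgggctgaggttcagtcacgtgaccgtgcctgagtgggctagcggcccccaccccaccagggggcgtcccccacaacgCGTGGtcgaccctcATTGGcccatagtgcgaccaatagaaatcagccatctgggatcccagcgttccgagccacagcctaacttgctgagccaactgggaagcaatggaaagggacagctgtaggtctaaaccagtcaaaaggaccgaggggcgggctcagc
Creld2: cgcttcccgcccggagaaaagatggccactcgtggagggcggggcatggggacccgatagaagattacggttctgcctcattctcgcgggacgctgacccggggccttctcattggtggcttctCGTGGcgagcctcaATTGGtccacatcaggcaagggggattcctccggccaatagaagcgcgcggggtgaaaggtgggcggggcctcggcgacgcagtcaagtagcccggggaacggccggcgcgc
Dnajb11: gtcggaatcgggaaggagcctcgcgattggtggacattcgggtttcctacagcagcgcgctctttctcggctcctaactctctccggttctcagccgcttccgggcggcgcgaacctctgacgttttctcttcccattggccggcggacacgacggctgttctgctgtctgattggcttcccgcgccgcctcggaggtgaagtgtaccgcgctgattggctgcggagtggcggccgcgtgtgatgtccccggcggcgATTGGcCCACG
Herpud1: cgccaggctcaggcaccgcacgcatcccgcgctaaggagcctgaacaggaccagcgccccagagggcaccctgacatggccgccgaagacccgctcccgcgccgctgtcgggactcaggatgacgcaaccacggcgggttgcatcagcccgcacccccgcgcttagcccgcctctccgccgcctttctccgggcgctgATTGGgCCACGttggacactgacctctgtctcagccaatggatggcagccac

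*Hsp90b1* holds ERSE in both orientations, and in *Calr* and *Creld2* the match lies on the strand opposite to the gene, where capitals read CGTGG first. The match begins 65 bases before the start in *Hspa5*, 162 in *Calr* and 126 in *Creld2*, and in *Herpud1* ERSE-II begins 52 bases before the start. *Herpud1* also holds TTGCATCA, the other strand of TGATGCAA, a sequence type bound by ATF4 with C/EBP partners, which occurred in 1.03% of all promoters. ERSE in the other 5 genes is shown to compare the spacer, written from CCAAT to CCACG.
Dnajc3: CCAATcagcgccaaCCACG
Canx: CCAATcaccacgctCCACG
Pdia6: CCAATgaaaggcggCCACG
Syvn1: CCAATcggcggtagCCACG
Derl3: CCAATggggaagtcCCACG

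These genes were among the most abundant in control cells. The mean control level exceeded 100 TPM for 25 of the 44 and was under 20 TPM for 3, with a median of 115 TPM. *Hsp90b1* (892 ± 164 TPM, SD, n = 3), *Hspa5* (843 ± 234), *Sec11c* (819.7 ± 25.2), *P4hb* (633 ± 86.7) and *Calr* (568 ± 93.8) were the highest, and the first 2 did not differ beyond their spread. The lowest were *Edem3* (13.8 ± 3.82), *Derl3* (11.3 ± 4.03) and *Fkbp7* (5.91 ± 1.30). Together the 44 took 0.615% to 1.08% of all TPM in a sample.

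Chaperones and folding enzymes took the larger part of that total. Their summed level was 4525, 4964 and 6297 TPM in the control samples, 3774, 3408 and 4318 with the *Slc2a1* gRNA, and 3126, 4134 and 4157 with 5 gRNAs. Every sample of both deleted populations lay below every control sample. The translocon and signal peptidase genes summed to 2659, 2728 and 2916 TPM, to 2493, 2301 and 2506, and to 2219, 2356 and 2482, again without overlap with control. The sum of the 5 translocon genes alone went the other way with the *Slc2a1* gRNA. It was 645, 693 and 751 TPM in control, 767, 752 and 769 with that gRNA, and 693, 713 and 792 with 5 gRNAs. *Sec61b* held most of it, at 469 ± 33.2 TPM (SD, n = 3) in control, 566 ± 2.55 with the *Slc2a1* gRNA and 538 ± 35.4 with 5 gRNAs. Mean TPM of *Sec61a1*, *Sec61g*, *Sec62* and *Sec63* was lower with the *Slc2a1* gRNA than in control. In the order control, *Slc2a1* gRNA and 5 gRNAs, 5 signal peptidase genes held 1342 ± 59.0 TPM (SD, n = 3), 1043 ± 70.2 and 1037 ± 50.7. *Sec11c* alone made up 819.7 ± 25.2, 601 ± 40.7 and 595 ± 9.76 TPM of these. The 4 *Ssr* genes held 730 ± 43.0, 627 ± 37.0 and 583 ± 34.1. For 9 ERAD genes the control samples held 978, 941 and 1350.2 TPM, against 848, 658 and 937 with the *Slc2a1* gRNA, which did not overlap, and 656, 971 and 998 with 5 gRNAs, which did. The 3 sensors gave 173, 155 and 262 TPM in control, 156, 116 and 180.1 with the *Slc2a1* gRNA and 154, 265 and 275 with 5 gRNAs, and these ranges overlapped. Such sums were not tested. TPM of all genes also shifted, with a median difference from control on the log2(TPM + 1) scale of -0.11 with the *Slc2a1* gRNA and -0.05 with 5 gRNAs, and the part of this in the sums was not tested.

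**Figure D1:**
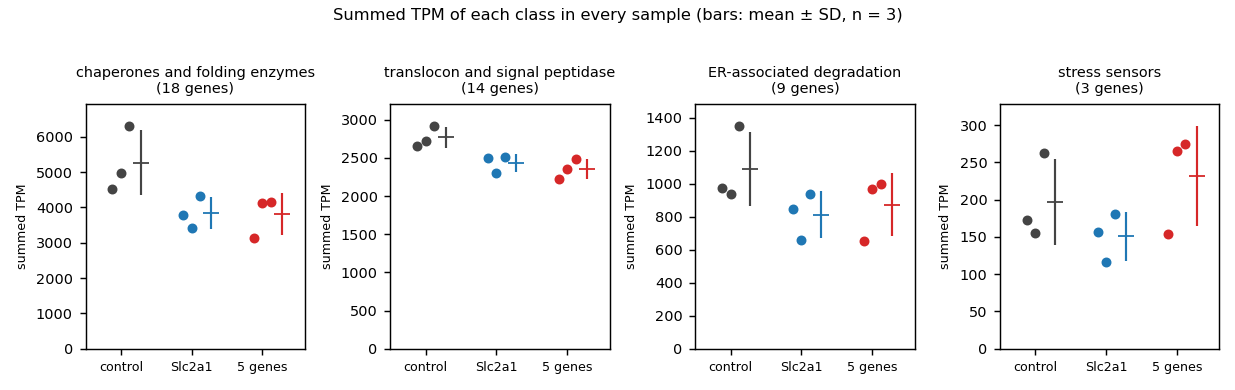
Summed TPM of the 4 classes of ER genes in each sample (vertical axes from 0, in TPM), with 3 samples per population as points and the mean ± SD (n = 3) as bars. Control samples of the chaperone class sit between 4525 and 6297 TPM, above all 6 samples of the deleted populations, while the sensor class overlaps.

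With the *Slc2a1* gRNA, 6 of the 44 genes fell against control and 0 rose, by edgeR's quasi-likelihood test with Benjamini-Hochberg adjustment over all 13834 genes tested. They were *Hsp90b1*, *Manf*, *Calr*, *Pdia6* and *Fkbp7* among folding factors and *Edem2* in ERAD. Over all genes tested, 4.64% passed and 2.39% were lower. Another 2.25% were higher. With total count normalisation 176 of all genes were higher and 561 lower, against 311 and 331 here, and 8 members were lower. The median log2 fold change of the 44 was -0.19 and that of all genes 0.00, and 38 of the 44 lay below 0, against 50.2% of all genes. The 3 samples did not overlap control and were lower for 20 of the 44 genes, against 13.0% of all genes, and higher for 1, against 13.2%. The count of 6 that passed changed when 1 library was left out. It became 0 without control replicate 1, 2 or 3, where 17, 14 and 9 had an unadjusted p under 0.05. It was also 0 without *Slc2a1* gRNA replicate 1 or 2, where 19 and 10 had one. Without replicate 3 it was 4, of which 3 were lower and 1 higher, and 2 were among the 6. All 6 kept their sign in every alternative, and the change nearest 0 was -0.35, for *Manf* and *Edem2*. DESeq2 called 13 of the 44, and 9.85% of all genes to which it gave an adjusted p.

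With *Slc2a1/3/5/6/8* gRNAs, 14 genes fell and 1, *Herpud1*, rose against control. Folding factors made up 9 of those that fell, and *Ssr2*, *Sec11c*, *Syvn1*, *Edem1* and *Edem2* the others. Over all genes tested 15.9% passed, with 7.44% lower and 8.49% higher. With total count normalisation 822 of all genes were higher and 1141 lower, against 1175 and 1029 here. Members were then 0 higher and 15 lower. The median log2 fold change was -0.23 for the 44 and 0.01 for all genes, and 36 of the 44 lay below 0, against 49.2% of all genes. Samples with 5 gRNAs all lay below control for 23 of the 44, against 17.2% of all genes, and all above for 1, against 17.0%. Leaving out 1 library gave between 6 and 19 genes, with 6 without control replicate 2, 6 without control replicate 3 and 7 without *Slc2a1/3/5/6/8* gRNA replicate 3. Both comparisons share the control samples.

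Between the deleted populations 2 of the 44 differed, against 2.31% of all genes (1.36% higher and 0.947% lower with 5 gRNAs). The median log2 difference was -0.10, with 30 of the 44 below 0, against 49.5% of all genes. Groups did not overlap for 9 genes that were lower, against 10.3%, and for 3 that were higher, against 10.6%. *Herpud1* was higher and *Dnajb11* lower with 5 gRNAs than with the *Slc2a1* gRNA alone, and they are the 2 of the 36 genes with a promoter sequence that hold ERSE-II. Of the genes with a promoter sequence, 10 fell with 5 gRNAs against control and 5 of these hold ERSE, while 25 did not pass in that comparison and 4 of these hold it. *Hyou1*, *Manf*, *Ssr2* and *Sec11c* also fell there but had no promoter sequence. The part of either element in these results was not tested. Neither *Herpud1* nor *Dnajb11* passed without the replicate block. Leaving out 1 library gave between 0 and 4 genes, with 0 without replicate 2 of either population. It gave 3 without *Slc2a1* gRNA replicate 1 and 1 without its replicate 3, and 0 of the 2 were among them. Without *Slc2a1/3/5/6/8* gRNA replicate 1 it gave 4 and without its replicate 3 it gave 1, with 1 of the 2 kept each time.

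**Figure D2:**
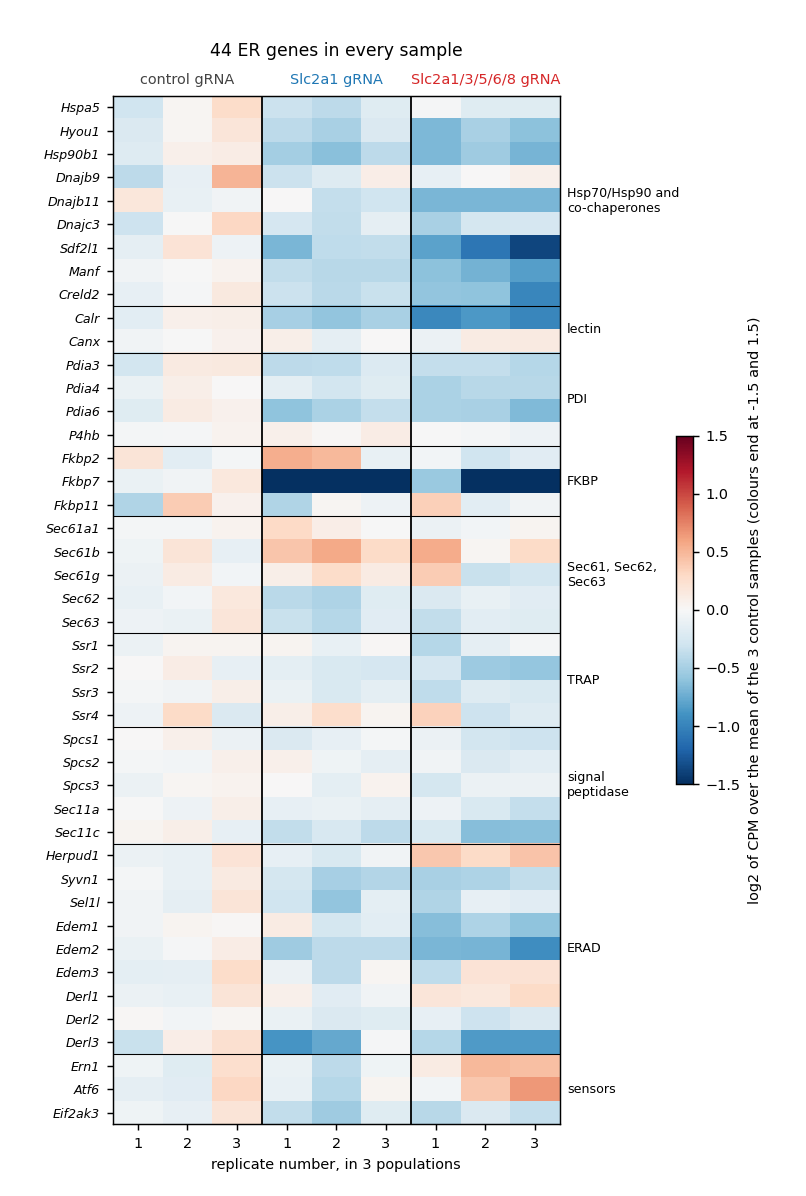
Level of each of the 44 genes (rows, grouped by role) in each of the 9 samples (columns), as log2 of normalised CPM over the mean of the 3 control samples, with blue for lower and red for higher. The 3 samples lie below all 3 control samples in 20 rows with the *Slc2a1* gRNA and in 23 rows with 5 gRNAs, while *Herpud1* is red in the 3 samples with 5 gRNAs.

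Among the Hsp70 and Hsp90 systems of the ER lumen, *Hsp90b1*, which encodes the ER Hsp90 (GRP94), was lower in both deleted populations. It was at 2228, 2688 and 2755 CPM in control, 1786, 1645 and 1935 with the *Slc2a1* gRNA, and 1602, 1756 and 1564 with 5 gRNAs. No sample of either deleted population reached the control range. Log2 fold changes against control were -0.51 ± 0.13 (SE, adjusted p = 0.0406) and -0.64 ± 0.13 (adjusted p = 0.00682). *Hspa5*, which encodes the central ER Hsp70 (BiP), was at 1809.8, 2282 and 2693 CPM in control, 1792, 1706 and 1973 with the *Slc2a1* gRNA and 2198, 1975 and 1966 with 5 gRNAs. The populations overlapped, and neither comparison passed (-0.30 ± 0.14, adjusted p = 0.233, and -0.13 ± 0.14, adjusted p = 0.567). In TPM, the ratio of *Hspa5* to *Hsp90b1* was 0.875, 0.899 and 1.03 in control, 1.05, 1.15 and 1.06 with the *Slc2a1* gRNA and 1.51, 1.17 and 1.45 with 5 gRNAs. It did not overlap between control and either deleted population, and was not tested.

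*Hyou1*, an Hsp110-type nucleotide exchange factor for BiP, was at 526, 622 and 693 CPM in control, 465, 434 and 523 with the *Slc2a1* gRNA and 382, 437 and 398 with 5 gRNAs. It fell with 5 gRNAs (-0.59 ± 0.12, adjusted p = 0.00769) and did not pass with the *Slc2a1* gRNA (-0.37 ± 0.12, adjusted p = 0.0976). *Manf*, a secreted ER protein that binds BiP, was at 240.5, 249 and 258 CPM in control, 193, 186 and 186 with the *Slc2a1* gRNA and 162, 152 and 140.3 with 5 gRNAs. Its 3 populations did not overlap, with log2 fold changes of -0.40 ± 0.11 (adjusted p = 0.0498) and -0.72 ± 0.11 (adjusted p = 0.00149). The deleted populations differed by -0.32 ± 0.11, which did not pass (adjusted p = 0.127). *Creld2*, another ER stress-induced secreted protein, was at 131, 141 and 159, at 115, 108 and 114, and at 94.9, 94.1 and 72.9 CPM. Its populations were also separate, but only the one with 5 gRNAs passed (-0.72 ± 0.13, adjusted p = 0.00405, against -0.36 ± 0.13, adjusted p = 0.130). The deleted populations differed by -0.37 ± 0.13, which did not pass (adjusted p = 0.148).

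*Sdf2l1*, a component of the BiP and J-protein complex, had the largest fall among genes that passed with 5 gRNAs. Control samples were at 63.0, 79.7 and 65.6 CPM, *Slc2a1* gRNA samples at 42.8, 53.0 and 53.3, and samples with 5 gRNAs at 39.7, 32.6 and 26.6. The populations did not overlap. The change with 5 gRNAs was -1.07 ± 0.15 (adjusted p = 0.00123), a 2.10-fold fall that passed in all 15 alternative settings, with adjusted p between 4.89e-14 and 0.0465. The *Slc2a1* gRNA gave -0.48 ± 0.15, which did not pass (adjusted p = 0.0856). Nor did the difference between the deleted populations (-0.60 ± 0.15, adjusted p = 0.0649), which passed in 6 of 15 alternatives.

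J-proteins deliver clients to BiP, and of the 3 listed only *Dnajb11* passed. *Dnajb11* (ERdj3) was at 235, 194 and 201 CPM in control, 209.6, 164 and 170.4 with the *Slc2a1* gRNA, and 130, 130.4 and 130 with 5 gRNAs. Only the last group lay apart, below both others, with log2 fold changes of -0.68 ± 0.11 against control (adjusted p = 0.00221) and -0.47 ± 0.11 against the *Slc2a1* gRNA (adjusted p = 0.0470). The *Slc2a1* gRNA alone gave -0.21 ± 0.11 (adjusted p = 0.273). *Dnajc3*, which also binds PERK, gave -0.25 ± 0.12 (adjusted p = 0.245) and -0.34 ± 0.12 (adjusted p = 0.0782). *Dnajb9* (ERdj4), a direct target of XBP1, gave -0.15 ± 0.13 (adjusted p = 0.544) and -0.02 ± 0.13 (adjusted p = 0.943), and its control samples ranged from 46.2 to 87.0 CPM.

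The lectin chaperones calreticulin and calnexin bind the same sugar chain on new glycoproteins, one in the lumen and one in the membrane. *Calr* was at 1046, 1227 and 1235 CPM in control, 826, 772 and 834 with the *Slc2a1* gRNA and 596, 640.2 and 591 with 5 gRNAs. All 3 populations were separate, and *Calr* fell in both, by -0.53 ± 0.12 (adjusted p = 0.0277) and -0.94 ± 0.12 (adjusted p = 0.000544). The fall with 5 gRNAs was 1.92-fold and passed in 14 of 15 alternatives, with adjusted p up to 0.0626. The deleted populations differed by -0.41 ± 0.12, which did not pass (adjusted p = 0.0834) and passed in 2 of 15 alternatives. *Canx* was at 559.7, 577 and 609 CPM in control, 620.4, 529.6 and 586 with the *Slc2a1* gRNA and 545, 631 and 641 with 5 gRNAs. The ranges overlapped fully, with log2 fold changes of -0.01 ± 0.12 (adjusted p = 0.985) and 0.06 ± 0.12 (adjusted p = 0.775). Both promoters hold ERSE.

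Protein disulfide isomerases (PDI) form and exchange disulfide bonds. *Pdia6* was at 759, 941 and 900.1 CPM in control, 569, 621 and 675 with the *Slc2a1* gRNA and 619, 616 and 547 with 5 gRNAs. Both deleted populations lay below control, by -0.48 ± 0.12 (adjusted p = 0.0452) and -0.54 ± 0.12 (adjusted p = 0.0125). *Pdia4* was at 761, 863 and 819, at 734, 669.9 and 717, and at 586, 612 and 612 CPM, and fell with 5 gRNAs (-0.43 ± 0.11, adjusted p = 0.0216). It did not pass with the *Slc2a1* gRNA (-0.20 ± 0.11, adjusted p = 0.312). *P4hb*, the most abundant of the family and also the beta subunit of prolyl 4-hydroxylase, was at 1813, 1832 and 1923 CPM in control, 1952, 1873 and 2002 with the *Slc2a1* gRNA and 1849, 1822 and 1767 with 5 gRNAs. It stayed within 0.07 ± 0.11 and -0.03 ± 0.11 of control on the log2 scale (adjusted p = 0.786 and 0.869). *Pdia3* (ERp57), the partner of the lectin chaperones, gave -0.33 ± 0.12 (adjusted p = 0.149) and -0.38 ± 0.12 (adjusted p = 0.0548).

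The FKBP proteins are prolyl isomerases. *Fkbp7*, the least abundant of the 44 in TPM, was at 3.00, 3.10 and 3.58 CPM in control, 0.337, 0.867 and 0.943 with the *Slc2a1* gRNA and 2.18, 1.02 and 0.850 with 5 gRNAs, from 7 to 117 estimated counts. Both deleted populations lay below control. The change with the *Slc2a1* gRNA was -2.15 ± 0.48 (adjusted p = 0.0286), the largest in size among the 44, and the one with 5 gRNAs did not pass (-1.27 ± 0.46, adjusted p = 0.0761). *Fkbp2*, the FKBP with the highest control TPM, was at 44.7, 35.0 and 38.5, at 57.1, 54.8 and 36.2, and at 38.2, 31.8 and 34.9 CPM, with overlap and no call (0.31 ± 0.14, adjusted p = 0.209, and -0.17 ± 0.14, adjusted p = 0.442). *Fkbp11*, known for high levels in secretory cells, gave -0.19 ± 0.19 (adjusted p = 0.626) and 0.06 ± 0.20 (adjusted p = 0.855).

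**Figure D3:**
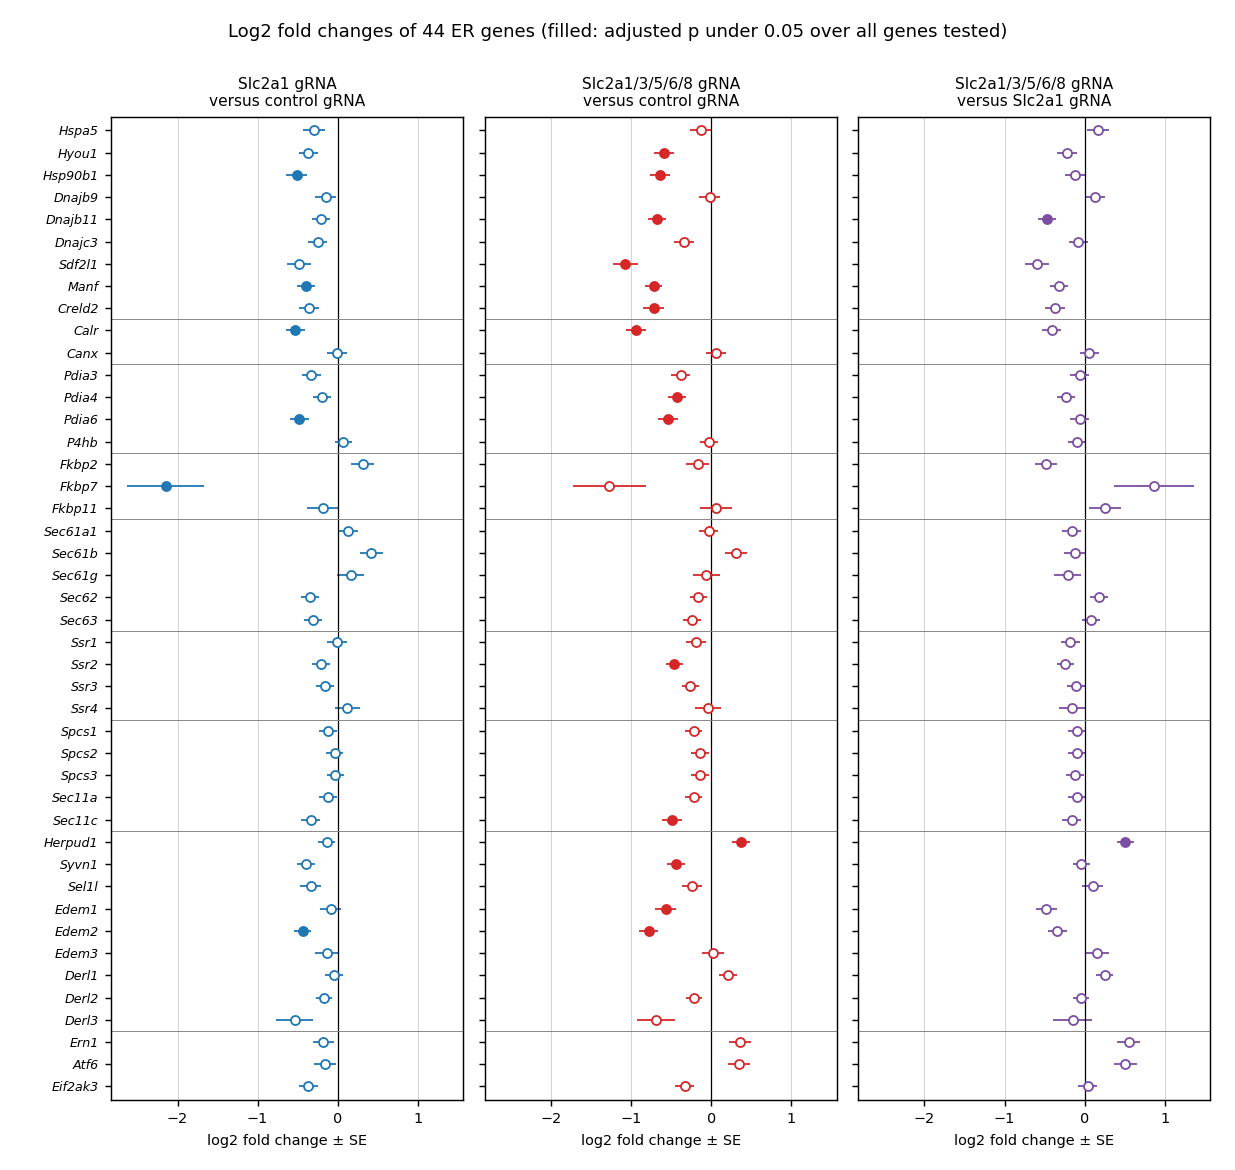
Log2 fold change ± SE (horizontal axis) of each of the 44 genes in the 3 comparisons, with lines between roles and filled points for genes past an adjusted p of 0.05. Most genes lie to the left of 0 in both comparisons with control. *Sdf2l1* reaches -1.07 with 5 gRNAs and *Fkbp7* -2.15 with the *Slc2a1* gRNA, while *Herpud1* is the filled point to the right of 0.

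Of the 14 translocon and signal peptidase genes, 0 passed with the *Slc2a1* gRNA by edgeR as fitted over all 9 samples (4 had an unadjusted p under 0.05, DESeq2 called 3 and limma on TPM 0, as of all genes), against 4.64% of all genes, and 2 fell with 5 gRNAs, against 7.44%. For the *Slc2a1* gRNA, DESeq2 called 9.85% of all genes to which it gave an adjusted p. In edgeR fits of only the 2 groups compared, *Sec61b*, *Sec62*, *Sec63* and *Sec11c* passed with the *Slc2a1* gRNA, against 16.7% of all genes. *Sec61b* also passed with no filter on low counts, against 5.47%. Sec61 is the channel itself, of an alpha, a beta and a gamma subunit. *Sec61b*, the most abundant in TPM, was at 137, 164 and 132 CPM in control, 191, 213 and 176 with the *Slc2a1* gRNA and 212, 147 and 176 with 5 gRNAs. The *Slc2a1* gRNA samples all lay above control, the only one of the 44 genes to do so, yet the difference did not pass (0.42 ± 0.14, adjusted p = 0.106). With 5 gRNAs it was 0.31 ± 0.14 (adjusted p = 0.165). The channel-forming *Sec61a1* gave 0.13 ± 0.12 (adjusted p = 0.543) and -0.03 ± 0.12 (adjusted p = 0.892), and *Sec61g* gave 0.16 ± 0.17 (adjusted p = 0.643) and -0.06 ± 0.17 (adjusted p = 0.858). *Sec62* and *Sec63*, which serve post-translational import and recruit BiP, gave -0.35 ± 0.11 (adjusted p = 0.0849) and -0.31 ± 0.11 (adjusted p = 0.116) with the *Slc2a1* gRNA. With 5 gRNAs they gave -0.16 ± 0.11 (adjusted p = 0.325) and -0.24 ± 0.11 (adjusted p = 0.157).

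The translocon-associated protein (TRAP) complex assists import of some signal peptides. Of its subunits *Ssr2* was at 264, 284 and 241 CPM in control, 237, 224 and 219.9 with the *Slc2a1* gRNA and 221, 179.6 and 176 with 5 gRNAs. Both deleted populations lay below control, and the one with 5 gRNAs passed (-0.46 ± 0.11, adjusted p = 0.0181, against -0.21 ± 0.11, adjusted p = 0.292). *Ssr1*, *Ssr3* and *Ssr4* ranged from -0.16 to 0.12 with the *Slc2a1* gRNA and from -0.26 to -0.04 with 5 gRNAs, and none passed. Adjusted p was 0.120 at the lowest, for *Ssr3* with 5 gRNAs.

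Signal peptidase holds either of 2 catalytic subunits, encoded by *Sec11a* and *Sec11c*. *Sec11c* was the third most abundant of the 44 and was at 630.2, 654 and 562 CPM in control, 477, 518 and 466 with the *Slc2a1* gRNA and 526, 396 and 397 with 5 gRNAs. All 6 samples lay below control, and the fall passed with 5 gRNAs (-0.49 ± 0.12, adjusted p = 0.0203) and not with the *Slc2a1* gRNA (-0.34 ± 0.12, adjusted p = 0.138). *Sec11a* gave -0.12 ± 0.11 (adjusted p = 0.573) and -0.22 ± 0.11 (adjusted p = 0.196). The TPM of *Sec11c* exceeded that of *Sec11a* 9.15, 9.94 and 7.19 times in control, 8.57, 7.79 and 6.91 times with the *Slc2a1* gRNA and 8.72, 7.14 and 7.73 times with 5 gRNAs, with overlap. The accessory subunits *Spcs1*, *Spcs2* and *Spcs3* gave between -0.12 and -0.03 with the *Slc2a1* gRNA and between -0.22 and -0.14 with 5 gRNAs, with no call.

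ERAD genes that passed included both directions. *Herpud1*, a membrane scaffold of the HRD1 ligase complex and itself induced by ER stress, was at 267, 263 and 328 CPM in control, 262, 242 and 274 with the *Slc2a1* gRNA and 377, 348 and 384 with 5 gRNAs. The last group lay above every other sample. It rose against control (0.37 ± 0.11, adjusted p = 0.0332, passing in 4 of 15 alternatives with adjusted p between 0.00302 and 0.432, and in none that left out a library) and against the *Slc2a1* gRNA (0.51 ± 0.11, adjusted p = 0.0312), while the *Slc2a1* gRNA alone gave -0.14 ± 0.11 (adjusted p = 0.496). *Syvn1*, the HRD1 ubiquitin ligase, was at 171, 162 and 192, at 145, 124 and 129, and at 125, 127 and 135 CPM. Both deleted populations lay below control, with -0.44 ± 0.11 for 5 gRNAs (adjusted p = 0.0188) and -0.40 ± 0.11 for the *Slc2a1* gRNA, which did not pass (adjusted p = 0.0569). In TPM *Herpud1* exceeded *Syvn1* 3.10, 3.25 and 3.39 times in control, 3.41, 3.67 and 4.17 times with the *Slc2a1* gRNA and 5.89, 5.42 and 5.27 times with 5 gRNAs, with no overlap between populations.

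*Sel1l*, the adaptor of HRD1 and the most abundant ERAD gene in TPM, was at 1637, 1547 and 1941 CPM in control, 1379, 1128 and 1539 with the *Slc2a1* gRNA and 1239.8, 1558 and 1508 with 5 gRNAs. The changes of -0.34 ± 0.13 (adjusted p = 0.156) and -0.24 ± 0.13 (adjusted p = 0.236) did not pass.

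The EDEM proteins mark misfolded glycoproteins for disposal by trimming mannose. *Edem2*, which starts this trimming, was at 204, 216 and 235 CPM in control, 151, 166 and 166 with the *Slc2a1* gRNA and 135, 134 and 114 with 5 gRNAs. The 3 populations were separate, and *Edem2* fell in both (-0.44 ± 0.11, adjusted p = 0.0497, and -0.78 ± 0.12, adjusted p = 0.00154). The deleted populations differed by -0.34 ± 0.12, which did not pass (adjusted p = 0.136). *Edem1* was at 1163, 1232 and 1213 CPM in control, 1309, 999.9 and 1078 with the *Slc2a1* gRNA and 771, 871 and 789 with 5 gRNAs. Here only the population with 5 gRNAs lay below control (-0.57 ± 0.13, adjusted p = 0.0124), and the *Slc2a1* gRNA gave -0.09 ± 0.13 (adjusted p = 0.721). The difference between the deleted populations, -0.48 ± 0.13, did not pass (adjusted p = 0.0773). *Edem3* gave -0.14 ± 0.14 (adjusted p = 0.620) and 0.02 ± 0.14 (adjusted p = 0.938).

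Derlins are membrane proteins of the exit channel. *Derl1* gave -0.05 ± 0.11 (adjusted p = 0.853) and 0.21 ± 0.11 (adjusted p = 0.238), *Derl2* gave -0.17 ± 0.10 (adjusted p = 0.341) and -0.22 ± 0.10 (adjusted p = 0.145), and *Derl3*, known for its restriction to secretory cells, gave -0.54 ± 0.23 (adjusted p = 0.199) and -0.69 ± 0.24 (adjusted p = 0.0655). *Derl1* exceeded *Derl2* in TPM 3.08, 2.93 and 3.59 times in control, 3.50, 3.12 and 3.29 times with the *Slc2a1* gRNA, and 3.83, 4.98 and 5.22 times with 5 gRNAs. The last group lay above the others.

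**Figure D4:**
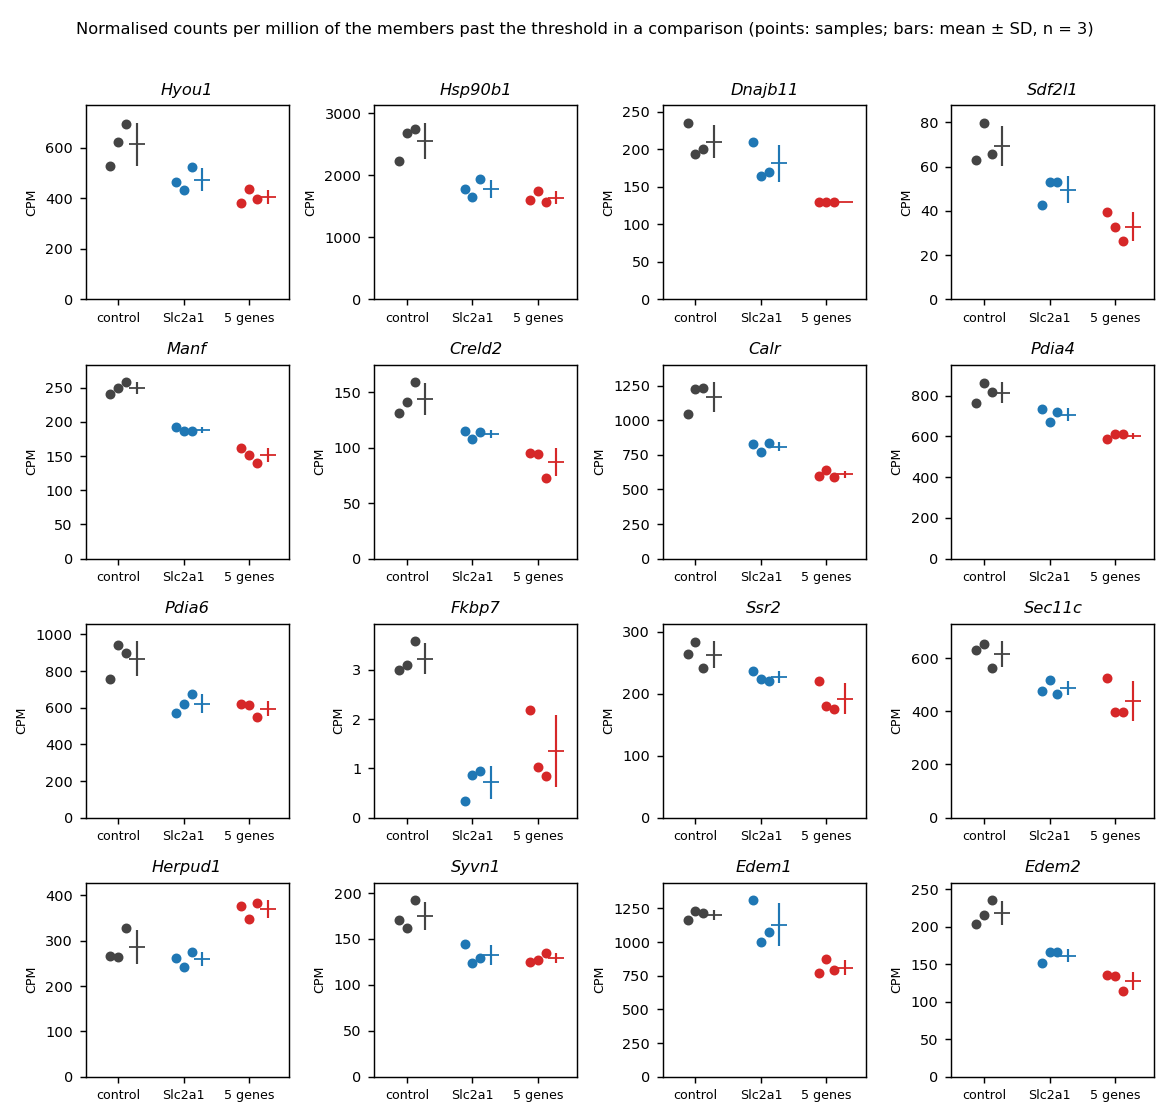
Normalised CPM (vertical axes from 0) of the 16 genes past the threshold in at least 1 comparison, in control, *Slc2a1* gRNA and *Slc2a1/3/5/6/8* gRNA (labelled 5 genes) samples, as points with the mean ± SD (n = 3). *Manf*, *Creld2*, *Calr*, *Sdf2l1* and *Edem2* step down from control to 5 gRNAs without overlap, but for none of them did the difference between the deleted populations pass. *Herpud1* is higher only with 5 gRNAs, at 348 to 384 CPM.

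None of the 3 sensors passed against control by edgeR as fitted over all 9 samples. Of all genes 4.64% passed with the *Slc2a1* gRNA and 15.9% with 5 gRNAs. For the *Slc2a1* gRNA 1 sensor had an unadjusted p under 0.05 and DESeq2 called 1. With 5 gRNAs 3 had one and DESeq2 called 3. By DESeq2 9.85% and 20.1% of the genes to which it gave an adjusted p passed. Limma on TPM called 0 sensors, where it called 0% of all genes for the *Slc2a1* gRNA and 2.43% (log2(TPM + 1)) or 0.636% (log2(TPM + 0.1)) with 5 gRNAs. Other edgeR settings called *Eif2ak3* with the *Slc2a1* gRNA when only those groups were fitted, against 16.7% of all genes. With 5 gRNAs they included *Ern1* with no filter on low counts and *Ern1* and *Atf6* without replicate 1 of that population. *Eif2ak3* passed without its replicate 2. Over all 15 alternatives, DESeq2 included, *Ern1* passed in 4, *Atf6* in 3 and *Eif2ak3* in 2 with 5 gRNAs against control. *Ern1* (IRE1 alpha), which splices *Xbp1*, was at 627, 574 and 776 CPM in control, 609, 497 and 626 with the *Slc2a1* gRNA and 713, 913 and 897 with 5 gRNAs. Its level with 5 gRNAs lay above all *Slc2a1* gRNA samples, with 0.55 ± 0.14 (adjusted p = 0.0601, below 0.05 in 5 of 15 alternatives and from 0.00104 to 0.410 over them), and overlapped control, with 0.36 ± 0.14 (adjusted p = 0.0874). *Atf6*, a membrane-bound transcription factor released by cleavage, was at 344, 337 and 469.6, at 351, 282 and 389, and at 369.6, 499.6 and 594 CPM, and gave 0.35 ± 0.14 against control (adjusted p = 0.104) and 0.51 ± 0.14 against the *Slc2a1* gRNA (adjusted p = 0.0768, below 0.05 in 5 of 15 alternatives and from 0.00322 to 0.425 over them). *Eif2ak3* (PERK) lay below control in both, with -0.37 ± 0.12 (adjusted p = 0.0920) and -0.33 ± 0.12 (adjusted p = 0.0772). In control cells *Ern1* was the most abundant of the 3, at 119 ± 35.0 TPM, and *Atf6* (48.8 ± 14.8) and *Eif2ak3* (28.5 ± 7.51) were lower.

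Other genes of the same pathways were taken from lists. Among 9 genes of the PERK and ATF4 branch, 7 rose with 5 gRNAs against control and 0 fell (limma on log2(TPM + 1) called 3), against 8.49% of all genes higher, with a median of 0.57, among them *Nupr1* (0.97 ± 0.10, adjusted p = 0.000180), *Trib3* (0.86 ± 0.11, adjusted p = 0.000604) and *Ddit3* (CHOP, 0.84 ± 0.14, adjusted p = 0.00339). Only 1 passed with the *Slc2a1* gRNA, *Ddit3*, which fell (-0.75 ± 0.15, adjusted p = 0.0187). Against the *Slc2a1* gRNA 5 of the 9 were higher with 5 gRNAs (limma called 1), against 1.36% of all genes, *Ddit3*, *Nupr1*, *Trib3*, *Ppp1r15a* and *Chac1*. *Ddit3* was at 50.8, 56.8 and 59.2 CPM in control, 30.1, 31.2 and 38.6 with the *Slc2a1* gRNA and 118, 74.0 and 109.7 with 5 gRNAs, and these did not overlap. The name of this list is a grouping by function, and the part of PERK in these changes was not tested. Of 9 genes for XBP1, ATF6-related factors and their partners, 0 passed in any comparison by edgeR, DESeq2 or limma on log2(TPM + 1). By edgeR 2, 0 and 2 had an unadjusted p under 0.05 with the *Slc2a1* gRNA, with 5 gRNAs and between the deleted populations. Of all genes 4.64%, 15.9% and 2.31% passed there by edgeR, so a count of 0 among 9 does not set this list apart. Other edgeR settings called at most 1 of the list, lower. For the *Slc2a1* gRNA this was with no filter on low counts or with only those groups fitted, against 5.47% and 16.7% of all genes. For 5 gRNAs it was without replicate 2 of that population. *Xbp1* itself was at 671, 729.7 and 816 CPM in control, 835, 813 and 799 with the *Slc2a1* gRNA and 793, 709 and 819.7 with 5 gRNAs. The tables hold total transcript and not its spliced share.

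Folding enzymes beyond the 44, further ERAD genes, oligosaccharyltransferase and targeting genes are given beside the share of all genes that fell, 2.39% with the *Slc2a1* gRNA and 7.44% with 5 gRNAs, and limma on log2(TPM + 1) called at most 1 gene of each of these lists in a comparison. Of 21 folding enzymes tested, 3 fell with the *Slc2a1* gRNA, *Sil1* (-0.81 ± 0.15, adjusted p = 0.0165), an exchange factor of BiP, *Pdia5* (-0.64 ± 0.12, adjusted p = 0.0170) and the oxidase *Ero1b* (-0.57 ± 0.13, adjusted p = 0.0284). Among them 6 fell and 1, *Cnpy2*, rose with 5 gRNAs, with *Pdia5* (-0.68 ± 0.12, adjusted p = 0.00394), *Ero1b* (-0.62 ± 0.13, adjusted p = 0.00788) and *Txndc11* (-0.50 ± 0.11, adjusted p = 0.0130) the lowest in adjusted p. Among 19 further ERAD genes 1 fell with the *Slc2a1* gRNA, *Aup1* (-0.69 ± 0.15, adjusted p = 0.0258). With 5 gRNAs *Aup1* (-0.95 ± 0.15, adjusted p = 0.00210) and the ligase *Rnf5* (-0.63 ± 0.12, adjusted p = 0.00621) fell and the ligase *Rnf139* rose (0.40 ± 0.11, adjusted p = 0.0337). Oligosaccharyltransferase, which attaches the sugar chain, had 1 of 11 lower with 5 gRNAs, *Dad1* (-0.42 ± 0.11, adjusted p = 0.0275). Between the deleted populations *Ost4* (-0.56 ± 0.11, adjusted p = 0.0294) and *Dad1* (-0.55 ± 0.11, adjusted p = 0.0306) were lower with 5 gRNAs. The list for signal recognition and targeting had 1 of 10 lower with 5 gRNAs, *Sec61a2* (-0.50 ± 0.16, adjusted p = 0.0479). That gene encodes an alpha subunit of the Sec61 channel, and no other gene of the list passed.

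The deposited gene lengths gave a readout that the choice of genes did not use. Each is a mean over a gene's transcripts weighted by their abundance, so it moves when transcript use moves. Lengths varied between samples for 40 of the 44 genes. With 5 gRNAs 10 of the 40 (25.0%) did not overlap control, 6 longer and 4 shorter, against 16.1% of 10765 genes whose length varied. For the *Slc2a1* gRNA it was 8 of the 40, against 12.5%, and between the deleted populations 6 of the 40, all longer with 5 gRNAs, against 10.6%. The 3 genes given next were chosen after their values were seen. *Sel1l* was 4365, 4147 and 4197 bases in control, 4333, 4753 and 4398 with the *Slc2a1* gRNA and 5123, 4606 and 4697 with 5 gRNAs, where only the last lay above control. *Derl1* was 3049, 2956 and 2994 bases in control and longer in both others, at 3083, 3166 and 3109 and at 3175, 3156 and 3175. *Herpud1* was also longer in both, at 1785, 1793 and 1763, at 1821, 1850 and 1805, and at 1801, 1813 and 1844 bases. With 3 samples against 3 an exact two-sided permutation test cannot go below 0.1, so none was run for single genes.

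How counting could touch these values differs by gene. None of the 44 had whole estimated counts (within 0.001) in all 9 samples. In GENCODE M21, 16 of the 44 have exonic bases that another gene overlaps and 4 have over 10% of them, *Spcs1* (16.3%), *Hsp90b1* (15.7%), *Ssr2* (12.8%) and *Sec62* (11.7%). The partners lie on the opposite strand, and for *Hsp90b1* on both strands. The library preparation is not stated to keep strand, and for these genes reads of the partner cannot be told apart.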

How the data were processed

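RNA from control gRNA, *Slc2a1* gRNA and *Slc2a1/3/5/6/8* gRNA cultures was sequenced for the study by Novogene after oligo-dT cDNA synthesis. Reads were quantified with Salmon 1.5.1. The genome build and annotation are not given in the sources used here. The deposited gene tables hold estimated counts, TPM, length and effective length, and TPM was normalised by the authors to a total of 1000000 per sample. Members and lists were chosen with earlier results of these data known.

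For each gene the rounded counts entered edgeR 4.0.16 under R 4.3.3 (quasi-likelihood test, TMM normalisation, default filter on low counts, replicate number as a block after the paired test the study describes, all 9 samples in one fit, Benjamini-Hochberg adjustment, threshold 0.05). The script was tested on simulated data. Totals per sample lay between 21838805 and 30537105 counts. The members with the fewest counts were *Fkbp7* (7 to 117) and *Derl3* (104 to 356), and how far depth limits precision was not tested. CPM are TMM-normalised. Samples of one group differed by more than sampling noise (chi-squared over its degrees of freedom was 18.8 or more). All 44 members are described by role, with values in every sample for members past the threshold and for the most abundant of each role, and in other lists up to 3 genes per comparison with the smallest adjusted p among those past it. Values in every sample of *Hspa5*, *Canx*, *Atf6* and *Xbp1* were added after they were seen, as were genes named to complete a count. Promoters came from RefSeq (GRCm38.p6). Alternatives were total count normalisation, DESeq2 1.42.0, no block, no filter, a minimum of 10 counts per sample, fits restricted to the 2 groups at hand, limma 3.58.1 on log2(TPM + 1) and log2(TPM + 0.1), and leaving out each sample. A fit without 2 libraries was added after seeing the data. *March6* was matched through RefSeq synonyms.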

Additional observations from a re-analysis of the deposited data

Results flagged for a closer look

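*Herpud1* and *Dnajb11* stood out because the effect of the 5 gRNAs differed from that of the *Slc2a1* gRNA by its own test, the edgeR contrast between the deleted populations. *Herpud1* differed by 0.51 on the log2 scale (SE 0.11, adjusted p = 0.0312, between 7.81e-05 and 0.305 over 15 alternatives), with all 3 samples with 5 gRNAs above all 3 *Slc2a1* gRNA samples, and passed in 6 of the alternatives. *Dnajb11* differed by -0.47 (SE 0.11, adjusted p = 0.0470, between 0.00205 and 0.563), with all 3 samples below, and passed in 3. Both kept their sign in all 15 alternatives. *Herpud1* rose although 14 other members fell against control, and *Dnajb11* stood at 130, 130.4 and 130 CPM in the samples with 5 gRNAs.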

How the results depend on the processing

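With the *Slc2a1* gRNA against control the main count of 6 members became 13 with DESeq2, 19 with only the 2 groups compared, and 0 with limma on log2(TPM + 1) or log2(TPM + 0.1), where 19 and 15 had an unadjusted p under 0.05. The share of all genes that passed, of those given an adjusted p in each setting, moved too, from 4.64% to 9.85% with DESeq2, 16.7% with the 2 groups and 0% with both limma settings. Leaving out 1 library gave 0 to 4, and DESeq2 and the 2-group fit kept all 6. For *Slc2a1/3/5/6/8* gRNA against control the count of 15 became 4 and 1 with limma on TPM, where the share of all genes went from 15.9% to 2.43% and 0.636%, and leaving out 1 library gave 6 to 19. Between the deleted populations the count of 2 became 7 with DESeq2, 8 with no filter on low counts, 1 with total count normalisation, and 0 with limma on log2(TPM + 1), on log2(TPM + 0.1) and with only the 2 groups compared, where 5, 5 and 11 had an unadjusted p under 0.05. The share of all genes, 2.31%, became 2.93%, 3.68%, 2.13%, 0.123%, 0.253% and 0.883% in those 6 settings. Leaving out 1 library gave 0 to 4. Without control replicate 3 and *Slc2a1/3/5/6/8* gRNA replicate 1, chosen after seeing the data, the counts were 2, 13 and 3. Of these, 1, 10 and 0 were members that passed with all 9 samples. The cause of these shifts was not tested.

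Without the replicate block the counts were 6, 15 and 0, so neither call between the deleted populations passed without it, where 13 had an unadjusted p under 0.05. Same-numbered samples correlated at 0.163 to 0.322 between control and *Slc2a1* gRNA, at -0.113 to 0.191 between control and 5 gRNAs and at -0.149 to -0.04 between the deleted populations, so all 3 pairs were over 0.1 only between control and *Slc2a1* gRNA, and elsewhere the block rests on the study's paired test.

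Every member that passed kept its sign in all alternatives, namely 6 of 6, 15 of 15 and 2 of 2. The median of all genes shifted from 0.00 to -0.11 and -0.16 with limma on log2(TPM + 1) and log2(TPM + 0.1) for the *Slc2a1* gRNA, where the median of members was -0.35 in both. Between the deleted populations the median of members moved from -0.10 to -0.02 in both limma settings and -0.06 with total count normalisation. That of all genes moved from 0.00 to 0.06, 0.08 and 0.05 in those 3 settings. *Fkbp7* was the only member that did not reach 10 counts in every sample. Exonic overlap and lengths were not varied.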

Other observations

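Of 12 genes listed with the COPII coat, which carries folded protein from the ER to the Golgi, 3 fell with the *Slc2a1* gRNA (*Sec23a*, -0.83 ± 0.13, adjusted p = 0.0102, *Sec24d*, -0.55 ± 0.12, adjusted p = 0.0255, and *Sec22b*, -0.43 ± 0.10, adjusted p = 0.0336, a fusion protein), against 2.39% of all genes. With 5 gRNAs against control 6 were lower, against 7.44% of all genes, with a median of -0.36 for the 12, among them *Sec13* (-0.80 ± 0.11, adjusted p = 0.000861), *Sec23a* (-0.74 ± 0.13, adjusted p = 0.00409) and *Sec22b* (-0.52 ± 0.10, adjusted p = 0.00619). limma on log2(TPM + 1) called 0 and 1 of the 12, and 6 had an unadjusted p under 0.05 by edgeR in each comparison. *Sec13* was also lower than with the *Slc2a1* gRNA (-0.54 ± 0.11, adjusted p = 0.0236).

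Of 12 chaperone genes of the cytosol tested, 2 rose with the *Slc2a1* gRNA, against 2.25% of all genes, and 1 with 5 gRNAs, against 8.49%. DESeq2 called 4 and 2, and limma on log2(TPM + 1) called 0 in each, where edgeR had 6 and 2 at an unadjusted p under 0.05. *Hspa8*, the constitutive cytosolic Hsp70, was at 1663, 1749.9 and 1697 CPM in control, 3346, 3194 and 2417 with the *Slc2a1* gRNA and 1579, 1643 and 1881 with 5 gRNAs. It rose with the *Slc2a1* gRNA (0.81 ± 0.14, adjusted p = 0.0145) and was lower with 5 gRNAs (-0.81 ± 0.14, adjusted p = 0.0151, against the *Slc2a1* gRNA). *Hsph1*, its exchange factor, also rose with the *Slc2a1* gRNA (0.71 ± 0.17, adjusted p = 0.0327), and *Hsp90aa1* rose with 5 gRNAs (0.45 ± 0.14, adjusted p = 0.0487).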
